A study of Mus musculus with 14 samples.

Results

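The 10 genes described here act at the neuromuscular junction and were followed across 12 RNA-seq libraries of mouse hind limb muscle and in a peak list of Myf6 binding. They are the 5 subunit genes of the muscle acetylcholine receptor (Chrna1, Chrnb1, Chrnd, Chrne and Chrng), the genes that cluster the receptor (Musk, Dok7 and Rapsn), the acetylcholinesterase gene Ache and the adhesion molecule gene Ncam1. All 10 were found by gene name among the 49585 genes of the deposited expression tables. The libraries form 4 groups of 3: wild-type (WT) muscle without injury, Myf6 knockout (KO) muscle without injury, injured WT muscle and injured Myf6 KO muscle. Each injured library shares a number in the labels with an uninjured library of its genotype, so the 6 animals, 3 per genotype, each gave both. The knockout allele, the kind of injury, the time after it and the age and strain of the mice are not given in the sources used here. Myf6 binding was measured in primary myotubes grown from adult satellite cells, in 1 chromatin library made with a Flag antibody and 1 control library.

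The muscle acetylcholine receptor is a ligand-gated channel of several subunits that opens when the motor nerve releases acetylcholine. The fetal receptor holds the gamma subunit (Chrng), which the epsilon subunit (Chrne) replaces in innervated adult muscle. Under the nerve, agrin binds Lrp4 and activates the kinase MuSK together with its adaptor Dok7, and rapsyn (Rapsn) then anchors the receptors, while acetylcholinesterase ends the signal in the cleft. Denervated muscle is known to raise receptor subunit genes and Ncam1 along the fibre. Several receptor promoters hold E-boxes, the sites of myogenic factors such as MyoD, myogenin and Myf6, also known as MRF4.

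Depth ran from 1880087 to 49392472 reads per library, so that 3 reads were worth between 0.0607 and 1.60 RPM (reads scaled to the total of the library). WT uninjured replicate 2 was the shallowest. Myf6 itself had means of 60.9 RPM in uninjured WT and 80.4 RPM in injured WT muscle, and reached at most 3.46 RPM in any KO library. Mitochondrial genes took 3.63% to 23.2% of reads, most in KO injured replicate 2, which also had the highest summed level of 10 Schwann cell markers, 1889 RPM against 163 to 975 RPM in the other 11 libraries. Where leaving that library out changed a call or a sign, the value without it is given too. The 7 markers of neurons and axons summed to at most 3.15 RPM in any library, and none passed the filter on low values.

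Chrnb1, which encodes the beta subunit, was the member that changed with the Myf6 genotype. In uninjured WT muscle it was read at 54.5, 48.9 and 47.1 RPM in replicates 1 to 3. In uninjured KO muscle it was read at 13.1, 13.1 and 10.1 RPM. Every KO library lay below every WT library, and the libraries within each genotype lay close together. The mean fell from 50.2 ± 3.84 RPM (SD, n = 3) to 12.1 ± 1.75 RPM (SD, n = 3), and the difference on the log2(RPM + 1) scale was -1.98 (SE 0.27; 95% interval -2.59 to -1.36). Chrnb1 was lower by limma's moderated test with Benjamini-Hochberg adjustment over all 12460 genes tested, with an adjusted p of 0.0267. It was the only member called of the 8 tested, beside 0.281% of all genes tested, and 0.152% called lower. In the authors' deposited table, its log2 ratio of WT over KO was 1.80 with a q-value of 0.000514, a table in which 0.668% of 49585 genes had a q-value under 0.05. The exact permutation test over the 6 libraries gave p = 0.1, the smallest value that 3 against 3 allows. Since this is bulk tissue, fewer cells of a type and less RNA per cell cannot be told apart, and neither can genotype and differences between the animals of the 2 genotypes.

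The size of the Chrnb1 difference varied little between analyses, from -2.14 to -1.79 on the log2 scale in 14 alternatives, but its adjusted p ranged from 9.93e-05 to 0.372 and was under 0.05 in 8 of them. The call was lost without WT replicate 1 (adjusted p = 0.372 by limma), WT replicate 2 (0.181), WT replicate 3 (0.0976) or KO replicate 1 (0.257), with no filter on low values (0.0993) and with edgeR on recovered reads (0.0524).

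In injured muscle the Chrnb1 estimate had the same direction. WT replicates 1 to 3 were read at 61.6, 44.0 and 51.6 RPM, and KO replicates at 12.4, 31.6 and 10.9 RPM. The groups did not overlap, and KO replicate 2 stood between the other KO libraries and the WT libraries. A complete separation with KO lower was seen in 8.63% of the genes tested in injured muscle and in 15.5% in uninjured muscle. The WT mean was 52.4 ± 8.85 RPM (SD, n = 3), and the KO mean was 18.3 ± 11.6 RPM (SD, n = 3). The difference of -1.61 (SE 0.39; 95% interval -2.53 to -0.69) did not pass the adjustment over 12625 genes (limma adjusted p = 0.257, unadjusted p = 0.00446). In 14 alternatives the estimate ran from -2.07 to -1.34 and the adjusted p from 0.0025 to 0.833, and it was under 0.05 in 2 of them. The highest was the limma value without KO injured replicate 3. Without KO injured replicate 2, the difference was -2.07 with a limma adjusted p of 0.0025, in a fit that called 2343 of 12312 genes, or 19%. DESeq2 on all 6 libraries gave an adjusted p of 0.0364, where 3.38% of genes were called, and the authors' deposited table gives a log2 ratio of WT over KO of 1.51 with a q-value of 0.0793 (0.454% of genes under 0.05). The genotype by injury interaction was 0.37 for Chrnb1 (95% interval -0.66 to 1.39) with a limma unadjusted p of 0.453, and it did not pass the adjustment, so no difference between the 2 genotype effects was shown. Without KO injured replicate 2 the interaction estimate was -0.09.

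**Figure D1:**
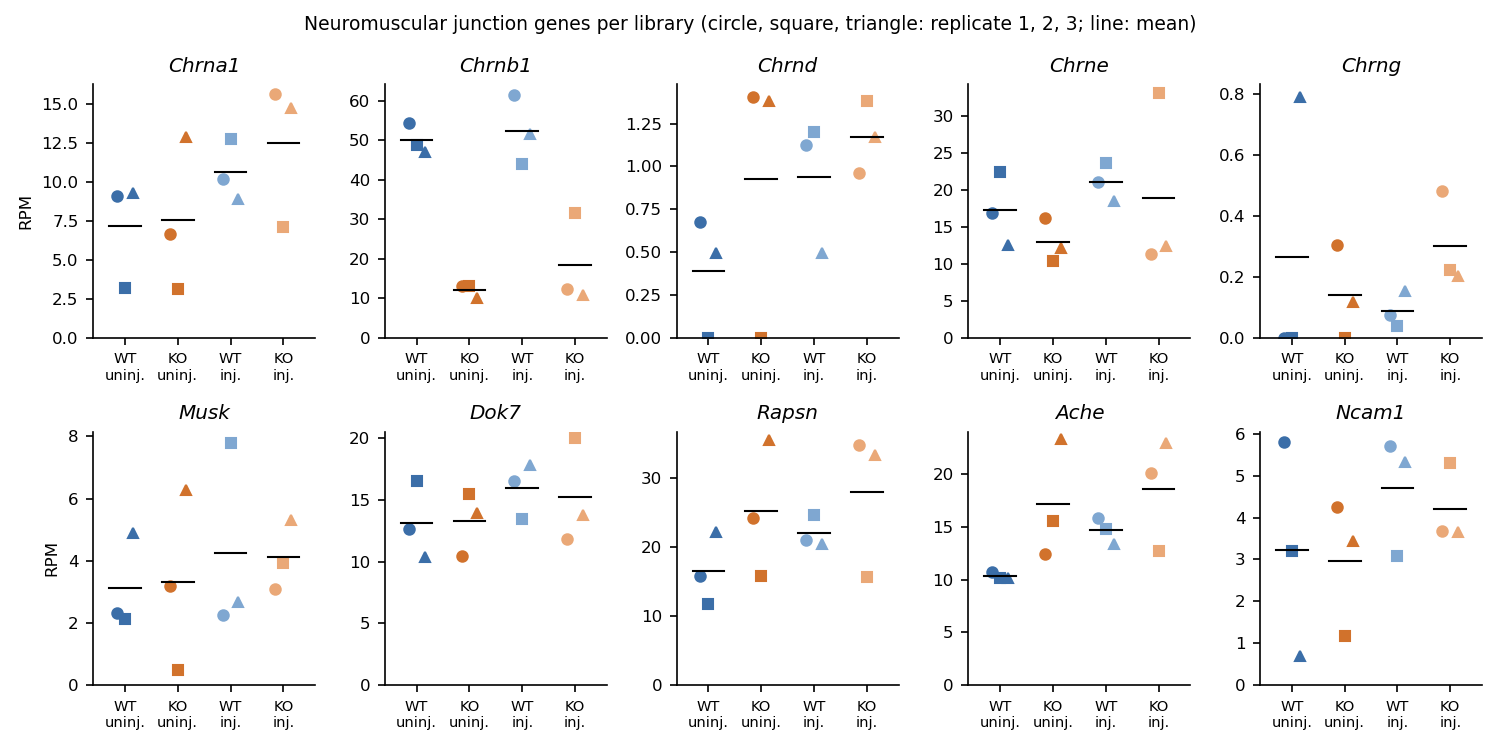
Level in RPM (linear vertical axes, each from 0) of the 10 genes in the 3 libraries of each group, with WT and KO muscle without injury (uninj.) and with injury (inj.); circles, squares and triangles are replicates 1, 2 and 3, and lines are group means. Chrnb1 lies at 44.0 RPM or above in all WT libraries and at 31.6 RPM or below in all KO libraries, which come from 3 animals per genotype.

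Within a library, the division of reads among the 5 receptor genes does not depend on how the library was scaled. Chrnb1 took 67.1%, 65.7% and 67.1% of the reads on these genes in the uninjured WT libraries. It took 34.7%, 49.3% and 27.5% in the uninjured KO libraries. In injured muscle the shares were 65.5%, 53.9% and 64.8% in WT and 30.3%, 43.1% and 27.7% in KO. All 6 WT shares were above all 6 KO shares, and the nearest pair, 53.9% (95% Wilson interval 51.8% to 56.0%) in WT injured replicate 2 and 49.3% (44.0% to 54.6%) in KO uninjured replicate 2, had overlapping counting intervals. These are shares of reads and not of subunits, because transcript lengths were not used.

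**Figure D2:**
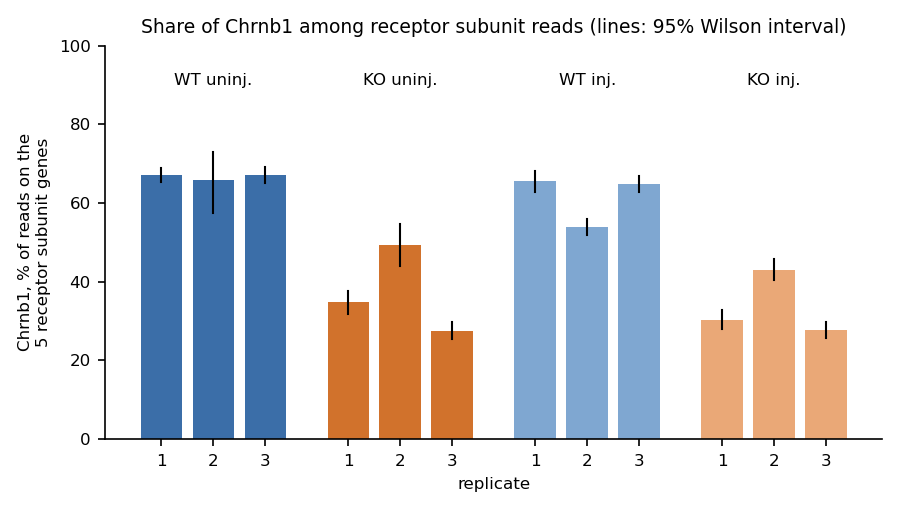
Percent of the reads on the 5 receptor subunit genes that fell on Chrnb1, for each replicate of the 4 groups (vertical axis from 0 to 100%); lines are 95% Wilson intervals, which cover counting error only. Shares in WT muscle run from 53.9% to 67.1% and in KO muscle from 27.5% to 49.3%.

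Genes around Chrnb1 on chromosome 11 had smaller differences. Of 44 other tested genes within 500 kb, none was called in uninjured muscle by limma, their estimates ran from -1.11 to 0.96 and their median was -0.02. In injured muscle none of 43 was called, and the range was -0.81 to 1.03. Chrnb1 spans chr11:69784036-69795966 on GRCm38.p6 and overlaps no other annotated gene.

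**Figure D3:**
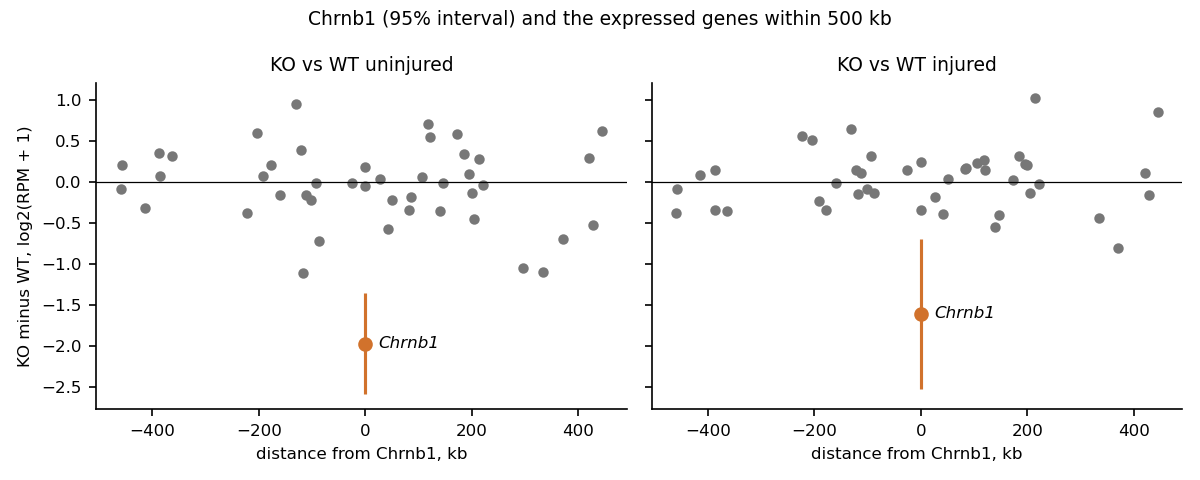
Difference of KO minus WT on the log2(RPM + 1) scale against distance from Chrnb1 in kb, for Chrnb1 (orange, with its 95% interval) and the tested genes within 500 kb (grey), in uninjured and injured muscle. The grey points lie between -1.11 and 1.03, above the Chrnb1 estimates of -1.98 and -1.61.

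Chrna1 encodes the alpha subunit, which carries most of the acetylcholine binding site. It was read at 9.11, 3.19 and 9.29 RPM in uninjured WT and at 6.66, 3.15 and 12.9 RPM in uninjured KO muscle. After injury it was read at 10.2, 12.8 and 8.88 RPM in the WT libraries and at 15.6, 7.14 and 14.7 RPM in the KO libraries. The genotypes overlapped in both states, and replicate 2 was the lowest library in 3 of the 4 groups and the highest in injured WT. Its uninjured WT value rests on 6 reads. The estimates of KO minus WT were 0.005 (95% interval -1.21 to 1.22) uninjured and 0.16 (-0.58 to 0.90) injured, so that a change of 2.32-fold uninjured or 1.87-fold injured lay at the upper end of what the libraries allow.

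Chrne, the adult epsilon subunit gene, was read at 16.9, 22.3 and 12.5 RPM in uninjured WT and at 16.2, 10.3 and 12.2 RPM in uninjured KO muscle. After injury it was read at 21.1, 23.6 and 18.5 RPM in the WT libraries and at 11.3, 33.1 and 12.4 RPM in the KO libraries. KO injured replicate 2 was the highest of all 12 libraries, while the other 2 injured KO libraries were below all injured WT libraries. The estimates were -0.38 (limma adjusted p = 0.656) uninjured and -0.31 (0.832) injured. Without KO injured replicate 2 the injured estimate was -0.77 with a limma adjusted p of 0.0224, in the fit that called 19% of all genes. Chrne overlaps the annotated gene 4930544D05Rik, and since the library kit does not mark strand, reads in the overlap cannot be assigned to either gene. The same holds for Chrna1 with Gm30940, Rapsn with Gm13778, Ache with Gm42456 and Mir8116, and Ncam1 with Gm11149.

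Chrnd and Chrng, the delta and gamma subunit genes, lie 5.74 kb apart on chromosome 1 and were near the limit of detection. Chrnd was read at 0.676, 0 and 0.494 RPM in uninjured WT and at 1.41, 0 and 1.38 RPM in uninjured KO muscle. It was read at 1.13, 1.20 and 0.498 RPM in injured WT and at 0.964, 1.38 and 1.17 RPM in injured KO muscle. Both zeros fell in the shallowest library of their group, where 3 reads were worth 1.60 RPM in WT and 0.236 RPM in KO. The other uninjured WT libraries lay below 1.60 RPM, but the other uninjured KO libraries lay above 0.236 RPM. The zero in KO was therefore below them by more than that floor covers. Chrnd passed the filter on low values in injured muscle only, with an estimate of 0.18 and a limma adjusted p of 0.836.

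Chrng passed in neither state. It had 0, 0 and 24 reads in uninjured WT, 8, 0 and 5 in uninjured KO, 1, 1 and 4 in injured WT and 18, 4 and 10 in injured KO muscle. In RPM, the injured KO libraries (0.482, 0.221 and 0.202) were above the injured WT libraries (0.0750, 0.0374 and 0.153). Such a separation with KO higher was seen in 8.29% of the genes tested in injured muscle. That set passed the filter on low values and leaves out Chrng, and the share among genes with so few reads was not counted. Chrng took at most 5.94% of the reads on Chrng and Chrne together (95% Wilson interval 4.02% to 8.69%), in WT uninjured replicate 3. The highest share in the KO libraries was 4.08% (2.60% to 6.36%), in injured replicate 1. The 0 of 525 reads in WT uninjured replicate 1 allow a share of up to 0.571%, below the lower bound in WT uninjured replicate 3, so libraries of 1 group differed beyond counting error.

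Musk, the receptor kinase gene, was read at 2.32, 2.13 and 4.91 RPM in uninjured WT and at 3.2, 0.472 and 6.27 RPM in uninjured KO muscle. After injury it was read at 2.25, 7.79 and 2.68 RPM in the WT libraries and at 3.10, 3.93 and 5.30 RPM in the KO libraries. The spread within each group exceeded the difference between the genotypes. The estimates were -0.15 (SE 0.59) uninjured and 0.09 (SE 0.40) injured, and the sign changed with edgeR and DESeq2 on recovered reads in both states.

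Dok7, the adaptor that activates MuSK, varied less. It was read at 12.6, 16.5 and 10.4 RPM in uninjured WT and at 10.4, 15.5 and 13.9 RPM in uninjured KO muscle. After injury it was read at 16.5, 13.4 and 17.8 RPM in the WT libraries and at 11.8, 20.03 and 13.7 RPM in the KO libraries. The genotypes overlapped in both states, with estimates of 0.02 (95% interval -0.72 to 0.75) and -0.09 (-0.65 to 0.47); the uninjured one turned to -0.13 with scaling to reads outside mitochondrial genes.

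Rapsn, the gene of the receptor anchor rapsyn, was read at 15.8, 11.7 and 22.2 RPM in uninjured WT and at 24.2, 15.7 and 35.5 RPM in uninjured KO muscle. After injury it was read at 20.9, 24.6 and 20.5 RPM in the WT libraries and at 34.8, 15.6 and 33.3 RPM in the KO libraries. In both states KO replicate 2 lay within or below the WT libraries, and the other 2 KO libraries lay above all of them. The estimates were 0.55 (SE 0.38; limma adjusted p = 0.561) uninjured and 0.25 (SE 0.31; 0.824) injured. Without KO injured replicate 2 the injured estimate was 0.61 with a limma adjusted p of 0.0311, again beside 19% of all genes called.

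Ache was read at 10.7, 10.1 and 10.1 RPM in uninjured WT and at 12.4, 15.6 and 23.4 RPM in uninjured KO muscle. All KO libraries were above all WT libraries, as 6.2% of the genes tested were in that direction. The means were 10.3 ± 0.342 RPM (SD, n = 3) and 17.1 ± 5.62 RPM (SD, n = 3), and the estimate of 0.63 (SE 0.33; 95% interval -0.11 to 1.38) did not pass the test (limma adjusted p = 0.418). After injury Ache was read at 15.8, 14.8 and 13.4 RPM in the WT libraries and at 20.1, 12.7 and 22.9 RPM in the KO libraries. There the groups overlapped through KO replicate 2, and the estimate was 0.28 (SE 0.24; limma adjusted p = 0.727), or 0.52 with an adjusted p of 0.0538 without that library.

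Ncam1 was read at 5.79, 3.19 and 0.692 RPM in uninjured WT and at 4.26, 1.18 and 3.44 RPM in uninjured KO muscle. After injury it was read at 5.70, 3.07 and 5.32 RPM in the WT libraries and at 3.67, 5.31 and 3.66 RPM in the KO libraries. The genotypes overlapped in both states, with estimates of 0.03 (95% interval -1.27 to 1.32) and -0.11 (-0.73 to 0.51). Uninjured WT replicate 3 was the lowest library of the 12.

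**Figure D4:**
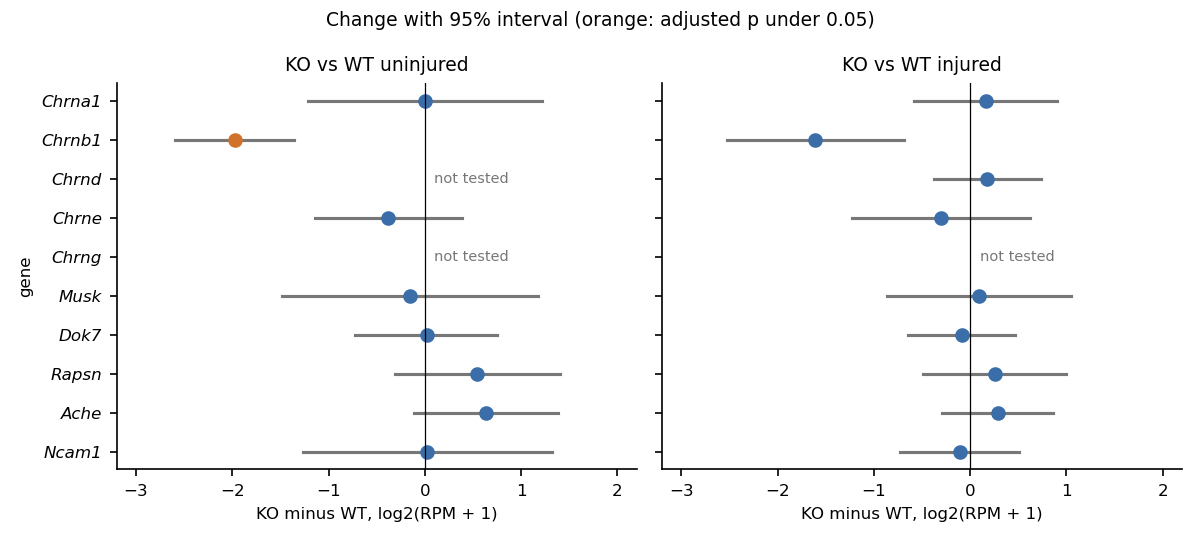
Difference of KO minus WT on the log2(RPM + 1) scale (horizontal axis) for each gene, with the 95% interval as a line, in uninjured and injured muscle; orange marks an adjusted p under 0.05, and genes that did not pass the filter on low values are marked as not tested. The Chrnb1 interval lies below 0 in both states, and all other intervals drawn include 0.

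In uninjured muscle, the 7 tested members other than Chrnb1 had estimates from -0.38 to 0.63 and limma adjusted p of at least 0.418. In injured muscle, the 8 tested members other than Chrnb1 had estimates from -0.31 to 0.28 and adjusted p of at least 0.727, and limma called none of the 9 members, beside 0.269% of all genes tested. At an unadjusted p under 0.05, Chrnb1 was the only member in the main limma fit of either state, beside 14.2% and 10.3% of all genes. In uninjured muscle Rapsn and Ache were also under it with TMM scaling, edgeR and DESeq2, and in the authors' deposited table (raw p = 0.0285 and 0.0138). The median difference of all genes tested in uninjured muscle was -0.18, and it was -0.02 with scaling by the trimmed mean of M values (TMM). Relative to those medians, Chrnb1 was lower by nearly the same amount, since its TMM estimate was -1.79. Over all genes, 16 were called higher and 19 lower in uninjured muscle, and 31 higher and 168 lower with scaling to reads outside mitochondrial genes.

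No member was called with injury. In WT muscle, the 9 tested members had higher estimates in injured than in uninjured libraries, from 0.05 to 0.61 with a median of 0.43, beside a median of 0.09 and a share of higher estimates of 62.4% over all 13337 genes tested. In KO muscle, estimates ran from 0.12 to 0.76 with a median of 0.38, beside a median of 0.29 and a share of 80.9%. The signs in KO muscle were not stable: Dok7, Rapsn and Ache were negative with TMM scaling, edgeR and DESeq2, and without KO injured replicate 2 Chrnb1 (-0.04), Chrne (-0.09) and Dok7 (-0.04) were. In WT muscle Chrnb1 was negative with TMM scaling, edgeR, DESeq2 and scaling to reads outside mitochondrial genes. Limma called 0 of the 13337 genes in either genotype (percent called 0), with 172 genes (1.29%) in WT and 468 (3.51%) in KO at an unadjusted p under 0.05, and edgeR and DESeq2 on recovered reads also called 0. No member was among those at the unadjusted threshold.

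Ache came closest in WT muscle. It was higher in the injured than in the uninjured library of all 3 WT animals, by 0.52, 0.50 and 0.37 on the log2(RPM + 1) scale, and all injured WT libraries were above all uninjured ones. Over all genes tested, 17.5% were higher in all 3 WT animals and 7.48% had injured WT libraries wholly above the uninjured ones. In the KO animals the differences were 0.65, -0.28 and -0.02. The estimate in WT was 0.47 (SE 0.28; limma unadjusted p = 0.126, adjusted p = 1), from a fit that did not pair the libraries of an animal. Chrna1 was higher after injury in all 3 KO animals, by 1.12, 0.97 and 0.18, as 19.8% of all genes were, while the WT animals showed 0.15, 1.72 and -0.06. Its estimates were 0.60 in WT and 0.76 in KO. Chrnb1 gave 0.17, -0.15 and 0.13 in the WT animals and -0.08, 1.21 and 0.11 in the KO animals, and without KO injured replicate 2 its KO estimate went from 0.42 to -0.04. No member was called in the genotype by injury interaction, where 0 of 13337 genes passed (percent called 0; 208, or 1.56%, at an unadjusted p under 0.05) and the members' estimates ran from -0.35 to 0.37.

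Other genes of the junction were read from a list of 41, and none was called with genotype. In uninjured muscle 34 were tested. Of these, 2 were higher and 4 lower at an unadjusted p under 0.05, where 14.2% of all genes were. The median was -0.13 beside -0.18 over all genes. The largest differences were those of Prepl (-1.19), Agrn (-1.11), Pak1 (1.05), Macf1 (-0.94) and Etv4 (0.84). Agrn encodes agrin, and its limma adjusted p was 0.186. In injured muscle 35 were tested. Of these, 5 were higher and 0 lower at an unadjusted p under 0.05, where 10.3% of all genes were. The median was 0.11 beside 0.01. The largest there were Etv4 (0.96), Pak1 (0.94), Prepl (-0.85), Ptpn11 (0.77) and Colq (0.56). Lrp4, the agrin receptor gene, had estimates of -0.17 and 0.23, and Colq, the collagen tail that anchors acetylcholinesterase, had 0.05 uninjured.

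Genes known to respond to denervation did not pass either. Of 20 listed, 17 were tested in each state. In uninjured muscle 3 were higher and 1 lower at an unadjusted p under 0.05, where 14.2% of all genes were (10.3% in injured muscle), and the largest differences were Sln (1.29), Ankrd1 (1.13), Ampd3 (-1.11), Fgfbp1 (-1.06) and Myh8 (1.05). In injured muscle 3 were higher and 1 lower at that threshold, and the largest were Sln (2.69), Myh3 (1.09), Mybph (1.0), Atp1b4 (-0.92) and Cdkn1a (0.80). Myog, which encodes myogenin, had estimates of 0.35 and -0.69. Among 9 myogenic regulators, Myf6 was the only one called in each state. Of 11 neuronal acetylcholine receptor genes, 2 were tested and neither was called: Chrna9 had estimates of 1.46 and 1.39, and Chrna10 had -1.02 and -0.65.

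Summed levels of marker lists of other cells and fibre types are given beside the Chrnb1 difference. The summed level of 6 slow fibre markers was 1132 to 1384 RPM in uninjured WT and 1547 to 3330 RPM in uninjured KO muscle, and 283 to 1175 RPM against 1438 to 4831 RPM in injured muscle. The 7 macrophage markers summed to 103 to 195 RPM in uninjured WT and to 57.1 to 94.1 RPM in uninjured KO muscle. The 8 muscle fibre markers were Acta1, Ckm, Myh1, Myh2, Myh4, Tnnt3, Pvalb and Mylpf, most of them genes of fast fibres. They summed to 149626 to 157067 RPM in uninjured WT and to 182459 to 214494 RPM in uninjured KO muscle. In injured muscle the sums of the fibre markers overlapped, at 154198 to 191547 RPM in WT and 137559 to 183697 RPM in KO libraries. Those of the macrophage markers did not, at 127.1 to 165 RPM and 105 to 113 RPM. The 6 adipocyte markers summed to 1199 to 2008 RPM in uninjured WT and 1701 to 3187 RPM in uninjured KO muscle, and to 383 to 1314 RPM and 1377 to 2992 RPM after injury. The 6 fibroblast markers summed to 495 to 1413 RPM and 381 to 939 RPM without injury, and to 918 to 1063 RPM and 790 to 967 RPM after it. The medians of the log2 differences in uninjured and injured muscle were -0.47 and 0.79 for Schwann cell markers, -0.29 and -0.40 for satellite cell markers and -0.03 and 0.48 for endothelial markers. They were 1.13 and 2.22 for slow fibre, 1.49 and 1.79 for adipocyte and -1.01 and -0.36 for macrophage markers. Those of fibroblast markers were -0.70 and -0.24, and those of muscle fibre markers 0.48 and 0.04. Over all genes tested the medians were -0.18 and 0.01. Limma called no gene of these 8 lists, and their part in the Chrnb1 difference was not tested.

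Across the 12 libraries, Rapsn and Chrna1 had a Pearson r of 0.83, Rapsn and Ache 0.79, and Chrnb1 and Ache -0.71, all on the log2 scale. These values describe libraries that share genotype, animals and depth. The genes most like Chrnb1 among 9172 compared were Mpp5 (r = 0.98), Pfas (0.98) and Tia1 (0.98); the WT and KO libraries form separate clusters in Chrnb1, and this enters each r. Pfas lies on chromosome 11, 776 kb from Chrnb1, and the other 2 on other chromosomes. The genes most like Rapsn were Lrrc39 (0.99), Arf1 (0.98) and Ankrd40 (0.98), and those most like Chrna1 were Rlim (0.97), Mcfd2 (0.97) and Agps (0.97). Nearest to Ache were Axin1 (0.95), Med16 (0.94) and Pip4k2b (0.94), to Chrne Mbd6 (0.94), Csrnp2 (0.93) and Man2c1 (0.92), and to Dok7 Scap (0.90), Usp13 (0.90) and Snx8 (0.85).

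Myf6 binding was described by 12898 peaks called on 6820784 immunoprecipitated and 6581071 control tags, with a median fold enrichment of 7.68. The enrichments are the authors' values for single libraries and have no replicate. A peak lay inside or within 10 kb of 8 of the 10 genes, beside 25.7% of 21900 protein-coding genes. Of the 9 members expressed in these libraries, 7 had one, beside 35.9% of expressed protein-coding genes. Of the 7 genes with a start in the promoter table, 4 had a peak summit between 250 bases before and 50 bases after the start, beside 0.999% of the 27025 genes in the table. These 4 were Chrng, Chrna1, Chrne and Musk. Among the 6 of those 7 that were expressed here, 3 had such a summit, beside 1.62% of expressed genes. With peaks of at least 10-fold, 1 of the 7 had one, beside 0.192% of the genes in the table.

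Chrng had the strongest of these promoter peaks, 12.7-fold enriched with its summit 160 bases before the start, and 11.6% of all peaks were as strong or stronger. The Chrna1 summit was 74 bases before the start (7.98-fold), and another peak, 15.3-fold enriched, lay 31.7 kb before it. The Chrne summit was 101 bases before the start (7.88-fold), and a 13.2-fold peak lay 2.94 kb before it. Musk had summits 354 and 72 bases before and 974 bases after its start, of 5.73-fold, 4.19-fold and 4.61-fold. Dok7 had a 10.8-fold peak 1.57 kb before its start and a 14.5-fold peak inside the gene.

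The 3 genes without a start in the table also had peaks. A 14.6-fold peak summit lay 110 bases inside one end of Rapsn, and a 6.28-fold summit lay 18 bases inside one end of Chrnd. Ncam1 held 5 peaks, the strongest 14.0-fold. Ache had its nearest summit 10.4 kb before the start (10.7-fold), just outside the 10 kb window. Chrnb1, the member that was lower in KO muscle, had no peak within 50 kb, and its nearest summit was 81.2 kb from the start (8.87-fold). With only peaks of at least 10-fold, 6 of 10 genes had one inside or within 10 kb, beside 9.31% of protein-coding genes; the peak counted for Chrnd is the Chrng promoter peak, so 1 peak counts for both.

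**Figure D5:**
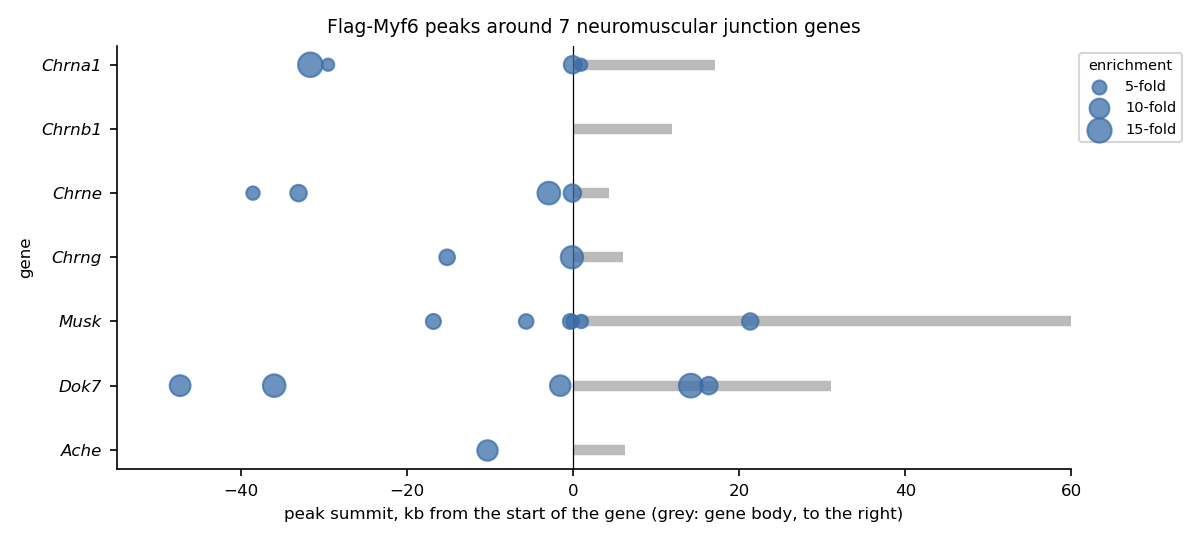
Positions of peak summits in kb from the start of the gene (horizontal axis; negative values lie before the start) for the 7 genes with a known start, with fold enrichment as the area of the circle and the gene body in grey. Summits sit at the starts of Chrna1, Chrne, Chrng and Musk, the row of Chrnb1 is empty, and the Musk body and 1 of its peaks run beyond the right edge.

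The sequences just before the starts of 3 bound promoters and of Chrnb1 are shown because they differ in their E-boxes. Each is the stretch of the 250 bases before the start that lies outside the annotated gene, from RefSeq on GRCm38.p6, read 5′ to 3′ on the strand of the gene, with every CANNTG in capitals. The Musk promoter was also bound and is not shown. Only 17 of its 250 bases lie outside the annotated gene, and they hold no CANNTG. The submitters' notes name mm10 and GRCm38.p5, whose chromosome coordinates GRCm38.p6 shares, without saying which was used for the peaks.
Chrna1, chr2:73580339-73580588, minus strand: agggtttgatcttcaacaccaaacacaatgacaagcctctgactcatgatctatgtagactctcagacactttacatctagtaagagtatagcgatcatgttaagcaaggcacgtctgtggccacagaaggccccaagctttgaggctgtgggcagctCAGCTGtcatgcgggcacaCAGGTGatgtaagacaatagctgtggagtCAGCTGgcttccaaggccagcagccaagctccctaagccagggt
Chrng, chr1:87205561-87205810, plus strand: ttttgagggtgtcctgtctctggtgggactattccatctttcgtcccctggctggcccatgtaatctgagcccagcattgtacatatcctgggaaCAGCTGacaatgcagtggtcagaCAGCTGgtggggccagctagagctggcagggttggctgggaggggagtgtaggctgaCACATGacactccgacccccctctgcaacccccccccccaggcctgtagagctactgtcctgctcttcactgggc
Chrne, chr11:70619214-70619444, minus strand: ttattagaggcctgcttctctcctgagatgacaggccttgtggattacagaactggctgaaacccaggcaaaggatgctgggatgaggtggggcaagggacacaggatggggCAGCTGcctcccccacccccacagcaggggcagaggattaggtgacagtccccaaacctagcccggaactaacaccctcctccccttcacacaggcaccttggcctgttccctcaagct
Chrnb1, chr11:69795967-69796187, minus strand: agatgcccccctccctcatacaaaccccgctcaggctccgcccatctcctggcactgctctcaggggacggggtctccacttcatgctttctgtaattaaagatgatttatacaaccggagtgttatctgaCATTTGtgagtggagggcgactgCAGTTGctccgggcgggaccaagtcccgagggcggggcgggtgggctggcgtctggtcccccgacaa

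The Chrna1 stretch holds CAGCTG 2 times and CAGGTG 1 time. The centre of the CAGGTG lies 3.5 bases from the peak summit, and those of the CAGCTG copies lie 15.5 and 32.5 bases from it. Chrng holds CAGCTG 2 times, 7.5 and 30.5 bases from the summit, and a CACATG 87.5 bases from it. Chrne holds 1 CAGCTG, 34.5 bases from the summit. Chrnb1 holds a CATTTG and a CAGTTG, 119 and 96 bases before the start, and no CAGCTG. In the 250 bases before the start, 66.2% of all 32851 promoters held a CANNTG and 13% a CAGCTG. The stretches of Chrnb1 (221 bases) and Chrne (231 bases) are shorter, so their E-boxes were counted on a narrower window than these shares. The same letters are found on both strands because CAGCTG is its own reverse complement. Of the 287 promoters with a peak summit in the window of 300 bases, 59.6% held a CAGCTG in those 250 bases, beside 12.6% of those without a summit. A match is a stretch of letters and not a measured binding site.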

How the data were processed

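Members and gene lists were chosen with earlier results of these data known. Per the submitters' processing notes, Bowtie 1.1.0, MACS2 2.1.0.20140616, HISAT2 2.1.0, SAMtools, featureCounts and DESeq2 were used. Total RNA was extracted with Trizol and libraries were made with the TruSeq RNA v2 kit, per the labels' protocols; the injury is not described further. The authors deposited, per gene, RPM for each library and their own log2 ratios of WT over KO with p-values and q-values. Whole reads were recovered from the RPM steps (100% of values whole within 0.1 read) and no 2 libraries were duplicates. The deposited peak table gives, per the file headers, fold enrichment and −log10 q-values at a q cutoff of 0.05.

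Differences were fitted with limma 3.58.1 (R 4.3.3; trended eBayes) on log2(RPM + 1) keeping genes that reached 1 RPM in 3 or more libraries of the fit, two-sided, with Benjamini-Hochberg adjustment over all genes tested and a threshold of 0.05. KO and WT were compared in 6 libraries, and injury and the interaction in all 12, which share controls. These fits had no term for the animal, so the injury tests were unpaired except where a block is named. Residual degrees of freedom were 4 and 8. Values after ± are SDs. A fold change on this scale understates the change of low genes. edgeR 4.0.16 and DESeq2 1.42.0 were run on recovered reads as alternatives, and the fits were tested on simulated data. Wilson intervals and floors (3 reads) cover counting error only. Starts, spans and sequences came from RefSeq tables of GRCm38.p6, in which 7 of the 10 members had a start; for the other 3, and for gene counts, distance was taken from either end of the gene. Named genes were all 10 members, Agrn, Lrp4, Colq and Myog, the 5 tested genes of the junction and denervation lists with the largest difference in each KO and WT comparison, and the 3 genes of highest Pearson r for members averaging at least 5 RPM; Chrna9 and Chrna10 were named after their values were seen.

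Within a genotype, uninjured and injured libraries with the same number were taken to come from 1 animal, which the labels do not state outright. Their deviations from the group means had correlations of 0.28, -0.23 and 0.02 over genes in WT and of 0.02, 0.50 and 0.63 in KO.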

Additional observations from a re-analysis of the deposited data

How the results depend on the processing

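Of 12460 genes tested in uninjured muscle, 35 were called with genotype. The count was 20 with a pseudocount of 0.1, 1 with no filter on low values, 113 with TMM scaling, 199 with scaling to reads outside mitochondrial genes (chosen after seeing the data), 55 with edgeR, 663 with DESeq2, 167 with all 12 libraries in 1 fit and 3 to 84 with 1 library left out. In injured muscle the 34 calls became 19 with no filter, 427 with DESeq2, 56 in the 12-library fit and 0 to 2343 with 1 library left out; the 2343 came without KO injured replicate 2 and each other omission gave 0. Replicate numbers are shared between WT and KO but name different animals; with them as a replicate block, 752 genes were called uninjured and 0 injured, and Chrnb1 had a limma adjusted p of 0.0019 and 0.773. For injury within animals, where the numbers were taken to pair, the block left 0 genes called. Without 1 library the injury calls in KO ranged from 0 to 1.

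Members called in uninjured muscle went from 1 to 0 with no filter and with edgeR, where the Chrnb1 estimates were -1.98 and -1.82, and ranged from 0 to 1 with 1 library left out. In injured muscle they went from 0 to 1 with DESeq2 and ranged from 0 to 3. With 1 library left out, the estimates of KO minus WT ranged as follows. Uninjured, Chrna1 had -0.43 to 0.44, Musk -0.67 to 0.49, Dok7 -0.13 to 0.18 and Ncam1 -0.53 to 0.48. Injured, Chrna1 had -0.02 to 0.49, Musk -0.18 to 0.54, Dok7 -0.29 to 0.07 and Ncam1 -0.33 to 0.02. For Chrnb1 they were -2.03 to -1.86 and -2.07 to -1.34. For injury, Chrnb1 had -0.07 to 0.17 in WT, -0.04 to 0.69 in KO and -0.09 to 0.63 in the interaction, and Ache had -0.08 to 0.35 in KO. Signs of estimates near 0 also turned in uninjured muscle for Chrna1 (-0.00 with a pseudocount of 0.1, -0.13 with scaling outside mitochondrial genes), Dok7 (-0.13) and Ncam1 (-0.10) with that scaling, Ncam1 with edgeR (-0.01) and DESeq2 (-0.02) and Musk with both (0.12), and in injured muscle for Musk (-0.09 and -0.07). With injury, Chrnb1 in WT turned to -0.02 with TMM and edgeR, -0.05 outside mitochondrial genes and -0.04 with DESeq2, and Ache in KO to -0.17, -0.16 and -0.17 with TMM, edgeR and DESeq2. The number of genes with a Flag-Myf6 peak was 8 within 10 kb, 9 within 50 kb (beside 46.3% of protein-coding genes) and 6 at 10-fold or more. Of the 9 expressed members, 8 had a peak within 50 kb, beside 60.5% of expressed protein-coding genes. The cause of these changes was not tested. Chrnd and Chrng had the fewest reads of the members in each group, so counting error weighs most on them. In the shallow WT uninjured replicate 2, Musk rested on 4 reads, Chrna1 and Ncam1 on 6 each and Ache on 19. Musk rested on 6 reads in KO uninjured replicate 2. Counting error weighs on these values too.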
